A study of Mus musculus with 9 samples.

Results

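Oxygen sensing in mouse mammary epithelial cells was followed through 32 genes of the hypoxia-inducible factor (HIF) pathway, chosen by name from a table of 54532 genes, with all 9 libraries used. The list holds 3 HIF subunits, 5 enzymes and binding partners that sense oxygen or turn HIF over, and 24 genes known as HIF targets. RNA was sequenced from HC11, a cloned mouse mammary epithelial line whose strain label reads C57BL/6, grown in a 12-well dish in DMEM with fetal bovine serum. The 3 groups of 3 libraries were EpPT2 and EpPT1, both exposed to 660 nm light, and Ctrl, which was untreated. The labels give 20 J/cm2 for EpPT2 and 10 J/cm2 for EpPT1, whereas the treatment protocol names a 10 mW laser with 0.5 and 1 J/cm2 and the design text an LED, so the groups are called by name and not by dose. The time from exposure to lysis, the oxygen level and the cell density were not given, and no label states separate cultures for the replicates. P-values therefore describe how far the sequenced libraries scattered, part of which may be technical. The comparisons ask whether the transcriptome of the line differed after exposure.

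HIF is a pair of proteins, an oxygen-regulated alpha subunit (HIF-1 alpha from Hif1a, HIF-2 alpha from Epas1) and the constant partner ARNT. In oxygen, the prolyl hydroxylases encoded by Egln1, Egln2 and Egln3 mark the alpha subunit for the ubiquitin ligase adaptor VHL, and the asparaginyl hydroxylase encoded by Hif1an blocks its coactivator binding. Regulation of the alpha subunit is therefore mainly at the protein level, which RNA counts do not measure. When oxygen is low the alpha subunit persists and HIF induces genes for vessel growth, glycolysis, mitophagy and collagen modification, and in the mammary gland HIF-1 is known for a part in secretory differentiation.

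Total counts were 14549787 to 17228929 per library, and 3 counts, taken as the most that a count of 0 allows, equal 0.174 to 0.206 CPM (counts scaled to library size). Mitochondrial genes took 3.38%, 6.06% and 6.94% of counts in EpPT2 libraries 1, 2 and 3, 3.44%, 2.74% and 6.93% in EpPT1, and 2.86%, 3.62% and 7.48% in Ctrl. The 4 libraries over 5% (EpPT2 2, EpPT2 3, EpPT1 3 and Ctrl 3) thus came from all 3 groups, and they also had the 4 smallest totals. Epithelial keratins were abundant in every library (Krt8 at 559 to 836 CPM, Krt18 at 760 to 1127 CPM), and the 5-marker epithelial list summed to 1942 to 2064 CPM in EpPT2, 1923 to 2183 CPM in EpPT1 and 1631 to 2576 CPM in Ctrl, though Cdh1 was below 1 CPM throughout. The 6 fibroblast markers summed to 1396 to 3561, 1327 to 3698 and 2021 to 6041 CPM in EpPT2, EpPT1 and Ctrl, nearly all from Dcn and Vim, with Lum and Col1a2 at or near 0. The sums of the basal, endothelial, and blood and immune lists reached at most 103 CPM in any library, with Acta2, Cdh5, Ptprc and Hbb-bs at or near 0, and the fat cell list held only Lpl, at 231 to 409 CPM.

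Of the 32 members, 28 had enough counts to be tested. Stc2, a secreted glycoprotein, had 0 counts in all 9 libraries, and Plod2 and Lox, which hydroxylate collagen lysines and start collagen crosslinks, reached at most 6 and 3 counts in any library. Car9, the carbonic anhydrase often used as a marker of hypoxia, had 23 counts over all 9 libraries, with 0.0609, 0.462 and 0.353 CPM in EpPT2, 0.173, 0.0566 and 0.208 CPM in EpPT1, and 0, 0 and 0.225 CPM in Ctrl. Car9 was thus at or near the limit of detection in every group. Per kilobase of gene length, the members with the highest mean level over the 9 libraries were Bhlhe40 at 135 CPM per kb, Fam162a at 119, Vegfa at 89.2, P4ha1 at 75.5, Egln3 at 70.5 and Bnip3 at 69.7 CPM per kb. The ranges of these 6 levels over the libraries overlapped, so neighbours in this order did not differ beyond their spread. Among the subunits, Hif1a averaged 32.7 CPM per kb, Epas1 7.87 and Arnt 7.56 CPM per kb, and every library gave Hif1a a higher level per length than the other two. Among the prolyl hydroxylases, Egln3 at 70.5 CPM per kb stood above Egln1 at 45.5 and Egln2 at 17.9 CPM per kb, and their ranges over the 9 libraries did not overlap.

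None of the 28 tested members passed the test in any comparison between groups, and 0.0% of the 14471 genes tested passed in EpPT2 against Ctrl, 0.0% in EpPT1 against Ctrl and 0.0% in EpPT2 against EpPT1 (edgeR quasi-likelihood test, Benjamini-Hochberg adjusted p under 0.05). The clearest group difference among the members was in Egln2, the prolyl hydroxylase also called PHD1, and the lowest adjusted p of any gene was 0.376 in EpPT2 against Ctrl and 0.991 in EpPT1 against Ctrl (edgeR). Most of the variation in the members lay within groups, not between them. Variation between libraries beyond counting error came to a coefficient of 39.3% (edgeR), part of which may be technical. The standard error of the log2 fold change had a median of 0.53 over the members in each comparison, against 0.37 over all genes.

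**Figure D1:**
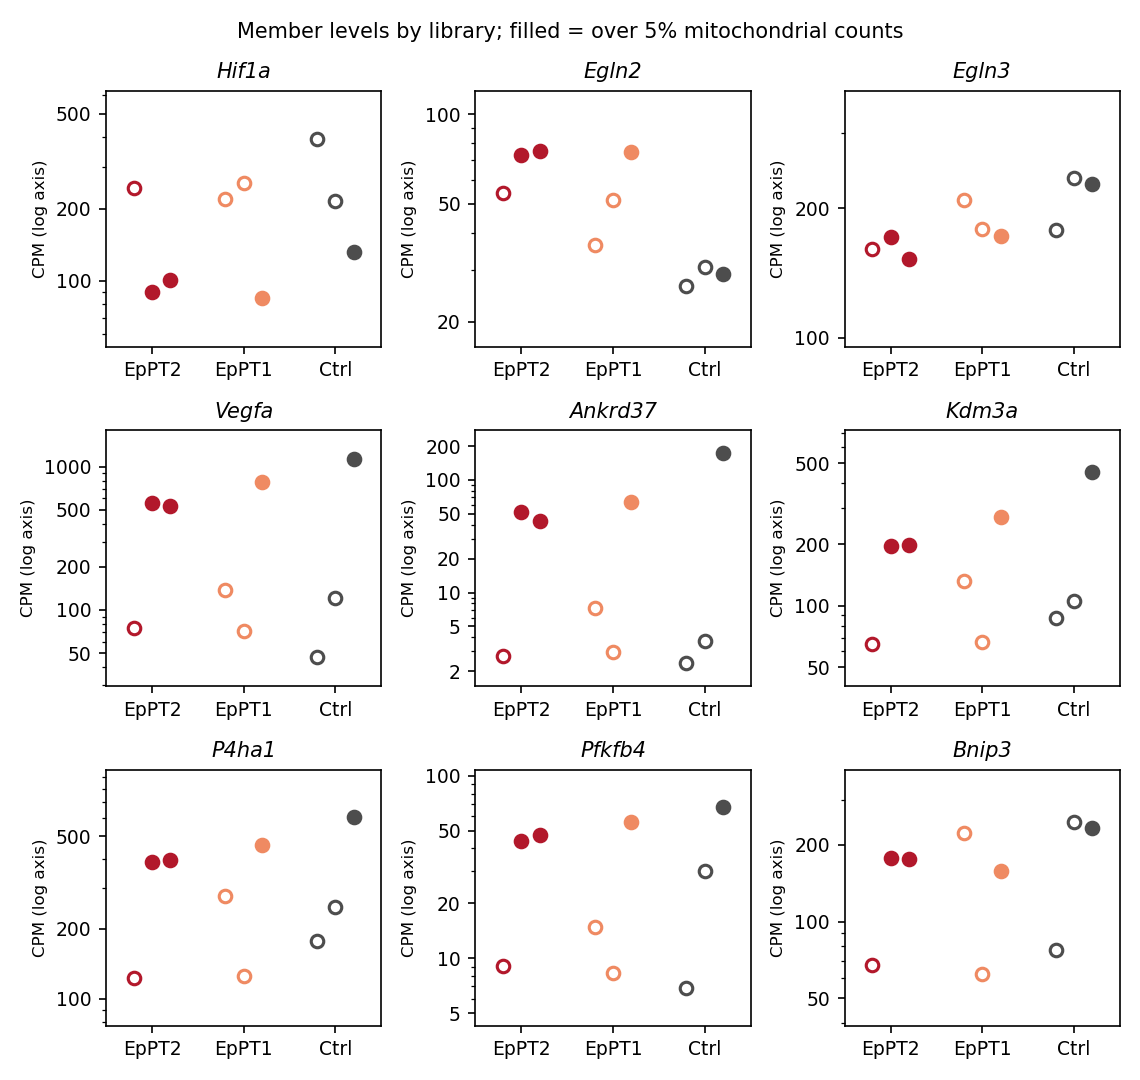
Level of 9 members in each library (TMM-scaled CPM, log axis), with 3 points per group for libraries 1 to 3 from left to right and filled points for the 4 libraries over 5% mitochondrial counts. Egln2 lies higher in the 6 exposed libraries (36.2 to 75.1 CPM) than in Ctrl (26.4 to 30.6 CPM), whereas Vegfa, Ankrd37, Kdm3a, P4ha1 and Pfkfb4 separate filled from open points in every group.

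In the fit by group alone, the HIF subunits showed no difference between groups beyond the spread. Hif1a had 245, 89.5 and 101 CPM in EpPT2, 219, 256 and 84.7 CPM in EpPT1, and 391, 216 and 132 CPM in Ctrl. Each group held at least 1 library with a level over 2.7 times that of another, and the groups overlapped. The log2 fold change was -0.76 (SE 0.53) in EpPT2 against Ctrl and -0.40 (SE 0.53) in EpPT1 against Ctrl, and without Ctrl 1 the EpPT1 value was 0.10. With 1 library left out, the EpPT2 value ran from -1.38 to -0.26. Its unadjusted p was under 0.05 (edgeR) with the replicate number as a block, with the mitochondrial share as covariate, without the count filter and without EpPT2 1. The covariate fit brought 24.4% of all genes to that level. The block brought 3056 of 14471 genes there, the unfiltered fit 2624 of 28724, and leaving out EpPT2 1 brought 2119 of 14913. Hif1a passed in none of these fits. With the trend of counts on gene GC content removed, alone or with the block, its unadjusted p was not under 0.05 (edgeR). Hif1a has a GC content of 41.3%, the lowest of all members, and the part of GC was not tested further. Epas1 had 30.8, 48.8 and 39.6 CPM in EpPT2, 40.6, 36.0 and 38.3 CPM in EpPT1, and 35.6, 43.8 and 62.8 CPM in Ctrl. Its log2 fold change was -0.25 (SE 0.26) and -0.31 (SE 0.26) in EpPT2 and EpPT1 against Ctrl, and without Ctrl 3 the EpPT2 value was 0.0015. Arnt was among the steadiest genes in the table, at 57.5, 56.7 and 59.7 CPM in EpPT2, 61.5, 58.6 and 52.4 CPM in EpPT1, and 55.2, 74.6 and 68.3 CPM in Ctrl. Its SD of log2 CPM over the 9 libraries was 0.157, and 2.67% of tested genes had a smaller one.

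Among the genes that sense oxygen, Egln2 stood apart. Egln2 had 54.3, 73.0 and 75.1 CPM in EpPT2, 36.2, 51.6 and 74.5 CPM in EpPT1, and 26.4, 30.6 and 29.0 CPM in Ctrl. All 6 exposed libraries lay above all 3 Ctrl libraries, and EpPT2 and EpPT1 overlapped. The means were 67.5 ± 11.5, 54.1 ± 19.3 and 28.7 ± 2.1 CPM (SD over 3 libraries) in EpPT2, EpPT1 and Ctrl. The log2 fold change of Egln2 was 1.23 (SE 0.28, adjusted p = 0.376, edgeR) in EpPT2 against Ctrl and 0.92 (SE 0.28, adjusted p = 0.991, edgeR) in EpPT1 against Ctrl, so neither passed, and the difference of EpPT2 from EpPT1 was 0.32 (SE 0.28). Egln2 was also the member with the largest share of its variation between groups, 77.1% of the sum of squares of its log2 CPM against a median of 5.37% over the tested members and 20.6% over all tested genes.

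Whether Egln2 passed depended on the processing. In EpPT2 against Ctrl it passed with DESeq2 (log2 fold change 1.24, adjusted p = 0.0289), which called 0.428% of genes, and with edgeR on all genes with a count (1.25, adjusted p = 0.0196), which called 0.933%. In EpPT1 against Ctrl, where Egln2 passed with neither, DESeq2 called 0.00691% of genes and the unfiltered fit 0.111%, and in EpPT2 against EpPT1 the unfiltered fit called 0.00696% and no member; limma-voom called 0.0% in each. In the other alternatives its adjusted p in EpPT2 against Ctrl was 0.0679 to 0.919. With the trend of counts on gene GC content removed from each library, the difference was 0.31 (adjusted p = 0.854, edgeR) in EpPT2 and 0.29 (adjusted p = 1.0, edgeR) in EpPT1. That trend, in log2 units per 10 points of GC, was 0.19, 0.29 and 0.28 in EpPT2, -0.36, 0.18 and 0.37 in EpPT1, and -0.50, -0.22 and -0.23 in Ctrl, and the Egln2 exons have a GC content of 62.2%, the highest of all members. The 5 libraries with a positive trend were the 5 with the most Egln2, and the part of GC in the result was not tested beyond this correction. The gene lies at chr7:27158658-27166802 on the minus strand (GRCm38) and overlaps Cyp2t4 on the other strand, which had 0.42 to 6.31 CPM; reads of the pair can be told apart only with a stranded count, and whether strand was used is not stated.

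The other 4 oxygen sensing genes differed little between libraries. Egln3, the hydroxylase that is itself a HIF target, had 161, 172 and 153 CPM in EpPT2, 209, 179 and 173 CPM in EpPT1, and 179, 235 and 229 CPM in Ctrl. All EpPT2 libraries lay below all EpPT1 and all Ctrl libraries, while EpPT1 and Ctrl overlapped. The log2 fold change of Egln3 was -0.40 (SE 0.20, adjusted p = 0.421, edgeR) in EpPT2 against Ctrl, -0.20 (SE 0.20) in EpPT1 against Ctrl and -0.21 (SE 0.20) in EpPT2 against EpPT1. Group explained 60.55% of its sum of squares, the largest share of the members after Egln2. With the GC trend removed, Egln3 alone of the members had an unadjusted p under 0.05 in EpPT2 against Ctrl (edgeR), beside 886 of 14471 genes. With the block as well, Egln3 and Plod1 did, beside 1499 genes, and neither passed. Egln1, the main hydroxylase of HIF-1 alpha in oxygen, had 130, 179 and 179 CPM in EpPT2, 182, 127 and 183 CPM in EpPT1, and 119, 188 and 185 CPM in Ctrl. Group explained 0.034% of its sum of squares, and its low libraries were 1 of each group. Vhl was steady at 61.2, 58.4 and 64.0 CPM in EpPT2, 58.1, 62.2 and 54.1 CPM in EpPT1, and 55.0, 67.2 and 63.0 CPM in Ctrl, with an SD of log2 CPM of 0.103, and 0.325% of tested genes had a smaller one. Hif1an had 68.3, 89.9 and 95.5 CPM in EpPT2, 73.7, 70.9 and 87.9 CPM in EpPT1, and 70.3, 71.5 and 68.3 CPM in Ctrl. Its 3 highest libraries were exposed ones with over 5% mitochondrial counts, and the groups overlapped.

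The secreted factors were among the most variable genes of the table. Vegfa, the main growth factor for blood vessels, had 74.8, 554 and 533 CPM in EpPT2, 139, 71.2 and 775 CPM in EpPT1, and 47.1, 122 and 1125 CPM in Ctrl. The highest Ctrl library stood 23.9 times above the lowest, and the high libraries of every group were those over 5% mitochondrial counts. The log2 fold change of Vegfa was -0.16 (SE 1.18) in EpPT2 against Ctrl and -0.39 (SE 1.18) in EpPT1 against Ctrl, and without Ctrl 3 it was 2.20 and 1.96. Its SD of log2 CPM was 1.71, larger than that of 99.4% of tested genes. Adm, which encodes the vasodilator peptide adrenomedullin, followed the same libraries at a low level, with 0.244, 2.31 and 2.05 CPM in EpPT2, 0.981, 0.0566 and 4.23 CPM in EpPT1, and 0.186, 0.538 and 7.88 CPM in Ctrl, and its highest library had 105 counts. Against Ctrl, Adm differed by -0.89 (SE 1.41) in EpPT2 and by -0.71 (SE 1.40) in EpPT1 on the log2 scale.

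Most of the 5 mitochondrial target products act in mitophagy, respiration or energy balance. Bnip3l, a mitophagy receptor also called NIX, had 74.0, 86.6 and 99.6 CPM in EpPT2, 165, 82.7 and 83.7 CPM in EpPT1, and 101, 174 and 151 CPM in Ctrl. All EpPT2 libraries lay below all Ctrl libraries, with the nearest pair at 99.6 CPM in EpPT2 and 101 CPM in Ctrl, and EpPT1 overlapped both. Its log2 fold change was -0.71 (SE 0.32, adjusted p = 0.405, edgeR) in EpPT2 against Ctrl, -0.36 (SE 0.31) in EpPT1 against Ctrl and -0.35 (SE 0.31) in EpPT2 against EpPT1, the last of which was 0.066 without EpPT1 1. In EpPT2 against Ctrl its unadjusted p was under 0.05, but not with the GC trend removed, alone or with the block (edgeR). Bnip3l has a GC content of 41.85%, and the part of GC was not tested further. The related receptor Bnip3 had 67.4, 178 and 177 CPM in EpPT2, 222, 62.6 and 158 CPM in EpPT1, and 77.3, 246 and 232 CPM in Ctrl. Its groups overlapped, and 1 library of each group was far below the others. Higd1a, a respiratory chain assembly factor, spanned 48.7 to 122 CPM, Fam162a, a mitochondrial protein induced by hypoxia, 52.3 to 149 CPM, and Ak4, a mitochondrial adenylate kinase, 29.0 to 75.6 CPM, with log2 fold changes against Ctrl between -0.37 and 0.10 in both exposed groups.

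Of the 4 tested collagen-modifying enzymes, Plod1, a lysyl hydroxylase, was the lowest in level and the one that differed most between groups. Plod1 had 4.39, 12.9 and 12.9 CPM in EpPT2, 4.56, 3.57 and 10.5 CPM in EpPT1, and 2.17, 3.05 and 6.61 CPM in Ctrl. The groups overlapped, and in each of them the libraries over 5% mitochondrial counts were the highest. Its log2 fold change was 1.35 (SE 0.59, adjusted p = 0.401, edgeR) in EpPT2 against Ctrl, 0.65 (SE 0.59) in EpPT1 against Ctrl and 0.70 (SE 0.58) in EpPT2 against EpPT1. The prolyl hydroxylase subunits P4ha1 and P4ha2, which stabilise the collagen helix, spanned 123 to 605 CPM and 95.4 to 413 CPM. P4ha1 had 123, 387 and 396 CPM in EpPT2, 276, 126 and 458 CPM in EpPT1, and 177, 248 and 605 CPM in Ctrl. Loxl2, a lysyl oxidase that crosslinks collagen, had 61.8, 289 and 297 CPM in EpPT2, 173, 49.3 and 271 CPM in EpPT1, and 60.6, 181 and 283 CPM in Ctrl. For P4ha1, P4ha2 and Loxl2 the groups overlapped over most of their range, and their log2 fold changes against Ctrl lay between -0.26 and 0.30 with standard errors of 0.59 to 0.73.

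The glycolysis regulators Pfkfb3 and Pfkfb4, which make the allosteric activator of phosphofructokinase, had the same 4 highest libraries. Pfkfb4 had 9.08, 44.0 and 47.4 CPM in EpPT2, 14.8, 8.32 and 56.2 CPM in EpPT1, and 6.83, 30.1 and 67.8 CPM in Ctrl. Pfkfb3 had 52.8, 115 and 115 CPM in EpPT2, 67.5, 57.3 and 131 CPM in EpPT1, and 45.0, 31.9 and 135 CPM in Ctrl. For both genes these were the 4 libraries over 5% mitochondrial counts, while Ctrl 2 was the lowest library for Pfkfb3 and the fifth highest for Pfkfb4. Against Ctrl, Pfkfb3 had a log2 fold change of 0.41 (SE 0.54) in EpPT2 and 0.27 (SE 0.54) in EpPT1.

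Among the targets that act on transcription and chromatin, Kdm3a, a histone H3 lysine demethylase, had 64.8, 197 and 198 CPM in EpPT2, 132, 66.3 and 271 CPM in EpPT1, and 87.3, 106 and 453 CPM in Ctrl. Bhlhe40, a transcriptional repressor, had 358, 941 and 893 CPM in EpPT2, 482, 363 and 870 CPM in EpPT1, and 344, 372 and 1095 CPM in Ctrl. The highest library for both was Ctrl 3. Mxi1, a repressor that opposes MYC, was flatter, at 22.7, 24.0 and 26.3 CPM in EpPT2, 40.5, 23.4 and 19.5 CPM in EpPT1, and 24.0, 38.6 and 34.2 CPM in Ctrl, with a log2 fold change of -0.41 (SE 0.31) in EpPT2 against Ctrl.

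Ankrd37, an ankyrin repeat gene induced by HIF-1, had the largest SD of log2 CPM of all members. Ankrd37 had 2.74, 51.8 and 43.5 CPM in EpPT2, 7.27, 2.94 and 64.2 CPM in EpPT1, and 2.36, 3.71 and 174 CPM in Ctrl. The highest library stood 73.7 times above the lowest, both of them Ctrl, and the SD of log2 CPM of 2.37 was larger than that of 99.9% of tested genes. Its log2 fold change was -0.87 (SE 1.57) in EpPT2 against Ctrl and -1.27 (SE 1.59) in EpPT1 against Ctrl, and without Ctrl 3 it was 3.42 and 3.02. Ankrd37 overlaps Ufsp2 and Lrp2bp on the other strand. Ufsp2 had 31.6, 35.8 and 35.9 CPM in EpPT2, 65.5, 31.4 and 36.1 CPM in EpPT1, and 45.8, 66.0 and 59.3 CPM in Ctrl. Lrp2bp had 1.28, 2.77 and 2.82 CPM in EpPT2, 2.66, 1.42 and 2.36 CPM in EpPT1, and 2.36, 3.29 and 5.56 CPM in Ctrl. Ctrl 3 was the highest library for Ankrd37 and Lrp2bp and EpPT1 1 and Ctrl 2 the highest for Ufsp2, and the part of these genes' reads in the Ankrd37 counts was not tested.

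Ddit4, an inhibitor of mTORC1 also called REDD1, had other libraries among its 4 highest, EpPT2 1 and EpPT1 2. Ddit4 had 107, 88.5 and 71.2 CPM in EpPT2, 32.2, 104 and 193 CPM in EpPT1, and 30.9, 59.4 and 58.9 CPM in Ctrl. All EpPT2 libraries lay above all Ctrl libraries, and EpPT1 overlapped both. Its log2 fold change was 0.84 (SE 0.52, adjusted p = 0.502, edgeR) in EpPT2 against Ctrl and 1.14 (SE 0.53, adjusted p = 0.991, edgeR) in EpPT1 against Ctrl, and without EpPT1 3 the EpPT1 value was 0.45. Ndrg1, a stress-responsive gene of differentiation, spanned 71.5 to 376 CPM and Ero1l, the endoplasmic reticulum oxidase that drives disulphide formation, 81.3 to 533 CPM, and the groups overlapped for both.

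**Figure D2:**
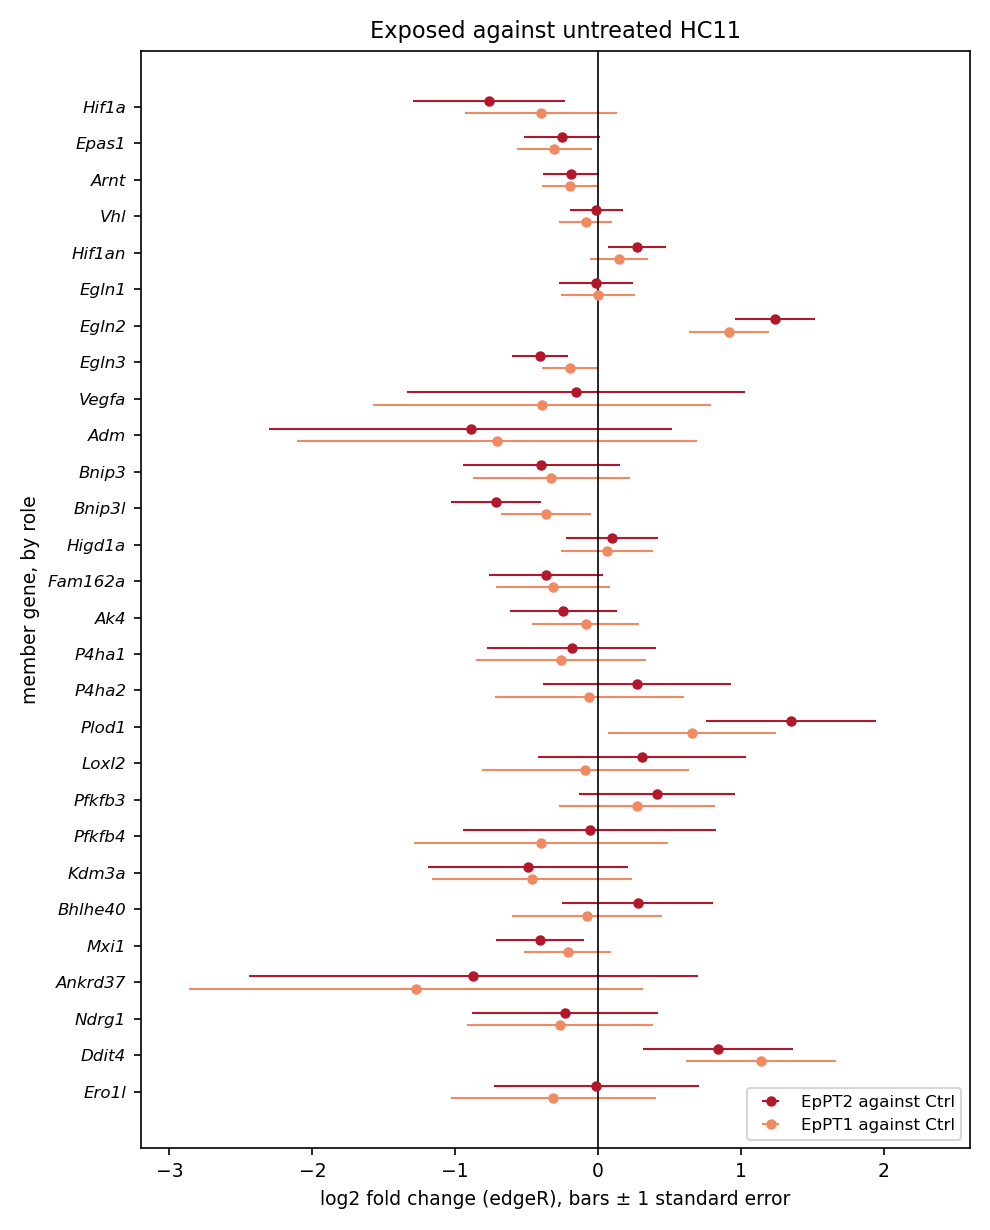
Log2 fold change of the 28 tested members in EpPT2 and in EpPT1 against Ctrl (edgeR), ordered by role, with bars of 1 standard error. Egln2 lies at 1.23 and 0.92, Plod1 at 1.35 and 0.65 and Ddit4 at 0.84 and 1.14, whereas Vegfa, Adm and Ankrd37 have bars more than 2 log2 units wide; none passed the test.

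Read as a list, the members had a negative median against Ctrl in both exposed groups, and its sign turned when single libraries were left out. Both medians were smaller in size than the SD of the member median between replicates of a group, 0.605. The median log2 fold change of the 28 tested members was -0.17 in EpPT2 against Ctrl, where the median of all tested genes was -0.03, and 9 members (32.1%) were positive beside 47.9% of all genes. In EpPT1 against Ctrl the median was -0.21, beside -0.02 for all genes, and 6 members (21.4%) were positive beside 48.0% of all genes. Both comparisons share the Ctrl libraries, and without Ctrl 3 the medians were 0.48 and 0.43. The EpPT2 median was also positive, at 0.14, without EpPT2 1, and the EpPT1 median, at 0.088, without EpPT1 2. In EpPT2 against EpPT1 the median was 0.04, beside -0.01 for all genes, and 17 members were positive (60.7%, beside 48.3% of all genes); its values without 1 library ran from -0.13 without EpPT1 2 to 0.37 without EpPT1 3.

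At an unadjusted p under 0.05 (edgeR), Egln2 and Plod1 were higher and Bnip3l was lower in EpPT2 against Ctrl, 3 of 28 members (10.7%), where 12.2% of all tested genes reached that level, 6.88% higher and 5.31% lower. In EpPT1 against Ctrl it was Egln2 alone (3.57%), beside 3.93% of all genes, of which 3.01% were higher and 0.919% lower. In EpPT2 against EpPT1 it was 0 members, beside 0.214% of all genes, 0.0691% higher and 0.145% lower. These shares are near those of all genes. Groups that did not overlap gave a like count. In EpPT2 against Ctrl, Egln2 and Ddit4 lay wholly above Ctrl (7.14% of members, beside 12.3% of all genes) and Egln3 and Bnip3l wholly below (7.14%, beside 10.9%). In EpPT1 against Ctrl, Egln2 lay wholly above (3.57%, beside 2.73%) and 0 members wholly below (beside 2.53%), and in EpPT2 against EpPT1, Egln3 lay wholly below (3.57%, beside 1.2%) and 0 members wholly above (beside 1.26%).

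Where the members did vary together was between libraries of the same group. The SD of log2 CPM over the 9 libraries had a median of 0.769 over the 28 tested members and 0.467 over all tested genes. In 14 members, all 4 libraries over 5% mitochondrial counts lay above all of the other 5, namely Adm, Ankrd37, Bhlhe40, Ero1l, Higd1a, Kdm3a, Loxl2, Ndrg1, P4ha1, P4ha2, Pfkfb3, Pfkfb4, Plod1 and Vegfa. This was 50.0% of the tested members, beside 16.5% of all tested genes, and no test was made because the split came from these data. Hif1a alone (3.57% of members, beside 18.0% of genes) had all 4 below the other 5. Hif1a was thus low in the libraries where these 14 targets were high. Fibroblast markers Dcn and Vim, at 733 to 3288 CPM and 586 to 2746 CPM, were lowest in EpPT1 2 and highest in Ctrl 3. They did not follow the split at 5%, since EpPT1 1 (2093 and 1601 CPM) and Ctrl 2 (2143 and 1634 CPM) were above EpPT1 3 (1812 and 1439 CPM). Col1a1 of the same list was highest in EpPT1 2, at 3.34 CPM, and had 1.35 CPM in Ctrl 3. The blood and immune list, nearly all of it Cd68, with Ptprc, Lyz2, Cd3e and Hbb-bs at or near 0, summed to 89.9 and 88.0 CPM in EpPT2 2 and EpPT2 3, 98.9 CPM in EpPT1 3 and 103 CPM in Ctrl 3, and to 9.74 to 46.1 CPM in the other 5 libraries. In bulk RNA, fewer cells of a type and less RNA per cell cannot be told apart. Total counts and GC trends also differed between these libraries, and the part of these markers, of depth and of GC in this pattern was not tested.

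**Figure D3:**
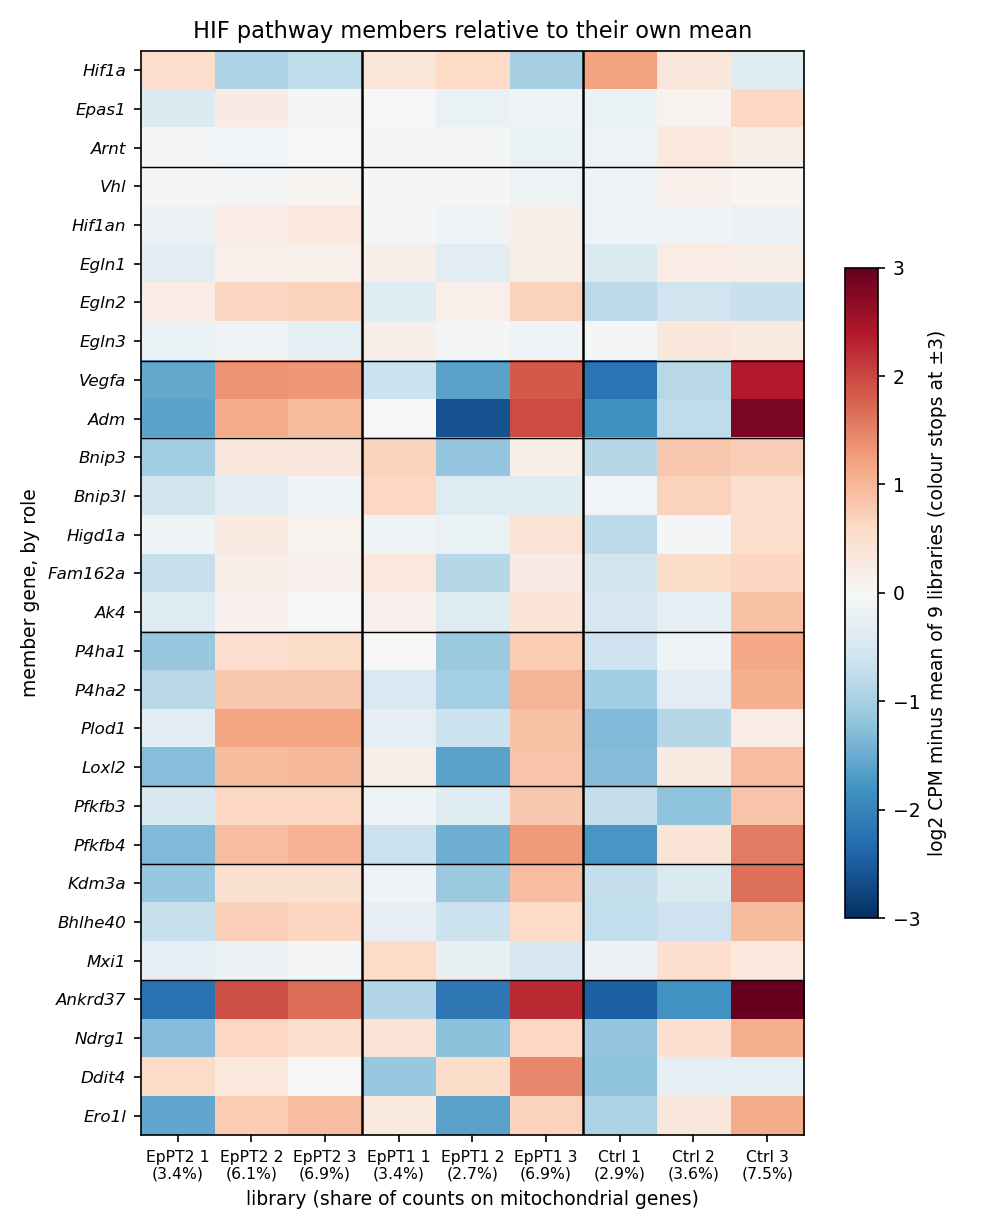
Log2 CPM of the 28 tested members minus each gene's mean over the 9 libraries, with members in rows by role and libraries in columns by group, and the mitochondrial share of each library in brackets. Columns over 5% are red for most targets in all 3 groups, Hif1a shows the opposite colours, and Arnt, Vhl and Hif1an stay near white.

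The 3 libraries with the smallest mitochondrial share, EpPT2 1, EpPT1 2 and Ctrl 1, again 1 of each group, lay below all of the other 6 in 16 members (57.1%), beside 8.92% of all tested genes. These included the mitochondrial target products Bnip3, Fam162a and Ak4 and also Egln1 and Epas1, besides Vegfa, Adm, Ankrd37, Ero1l, Ndrg1, P4ha1, P4ha2, Loxl2, Pfkfb4, Kdm3a and Bhlhe40. Hif1a was again the exception, with these 3 libraries above the other 6, as for 10.5% of genes. The remaining libraries under 5%, EpPT1 1 and Ctrl 2, took a middle place. EpPT1 1, at 3.44%, was close in share to EpPT2 1 at 3.38%. This cut too came from these data, so no test was made. The median of log2 CPM minus the gene's mean, over the 28 members, was -0.52, 0.40 and 0.40 in EpPT2, -0.02, -0.52 and 0.61 in EpPT1, and -0.72, 0.02 and 0.69 in Ctrl. The groups covered almost the same range, so the differences between libraries of a group exceeded those between groups. Dcn and Vim were also lowest in EpPT2 1, EpPT1 2 and Ctrl 1, Dcn at 756, 733 and 1293 CPM and Vim at 636, 586 and 721 CPM. The other 6 libraries had at least 1812 CPM of Dcn and 1439 CPM of Vim. Col1a1 and Pdgfra of the same list did not separate these libraries, and the part of fibroblast markers in the pattern was not tested.

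**Figure D4:**
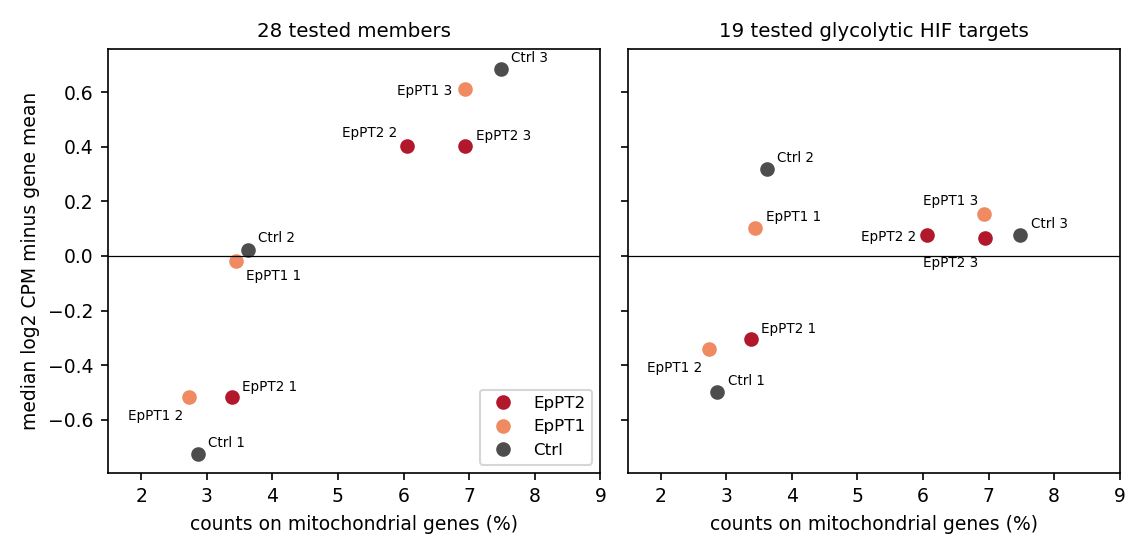
Median of log2 CPM minus the gene mean over the 28 tested members (left) and 19 tested glycolytic targets (right) in each library, against the percentage of its counts on mitochondrial genes. Members run from -0.72 in Ctrl 1 to 0.69 in Ctrl 3, with 1 or more libraries of every group at each end, whereas the glycolytic targets are low in the 3 leftmost libraries and level in the other 6.

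On each side of 5% mitochondrial counts, the exposed groups could be set beside Ctrl, though with 1 or 2 libraries a side and no test. Over 5%, the median member differed by -0.42 log2 units in EpPT2 (2 libraries) and by -0.40 in EpPT1 (1 library) from Ctrl 3, beside -0.0033 and -0.0015 for the median of all tested genes. There all 3 exposed libraries lay below Ctrl 3 in 22 of 28 members (78.6%), beside 39.6% of all genes, and above it in 4, Egln2, Ddit4, Plod1 and Hif1an (14.3%, beside 40.0%). Ctrl 3 had the largest mitochondrial share of these 4 libraries as well. Under 5%, the median member differed by -0.23 in EpPT2 (1 library) and by -0.03 in EpPT1 (2 libraries) from 2 Ctrl libraries. EpPT2 1, with a member median of -0.52, was there set against Ctrl 1 at -0.72 and Ctrl 2 at 0.02. By that median EpPT2 1 lay above Ctrl 1 and below Ctrl 2, so -0.23 is not a difference between like libraries. Egln2 was higher in each of these contrasts, by 1.35 in EpPT2 and 1.36 in EpPT1 over 5%, and by 0.93 and 0.60 under 5%. Hif1a was lower in each, at -0.47 in EpPT2 and -0.64 in EpPT1 over 5%, and at -0.25 and -0.30 under 5%. Under 5%, though, its exposed libraries (219 to 256 CPM) lay between Ctrl 2 (216 CPM) and Ctrl 1 (391 CPM). Of all members, Hif1a has the lowest and Egln2 the highest GC content. These differences were not corrected for GC, and its part in them was not tested. Vegfa differed by -1.05 and -0.54 over 5% and by -0.02 and 0.39 under 5%, and Ankrd37 by -1.87 and -1.43 over 5% and by -0.11 and 0.63 under 5%, in EpPT2 and EpPT1. With the mitochondrial share as a covariate of the fit, 0 members passed, and 6 members (21.4%, beside 24.4% of genes) in EpPT2 and 5 members (17.9%, beside 13.6% of genes) in EpPT1 had an unadjusted p under 0.05 against Ctrl (edgeR). Egln2, Hif1a and Plod1 were among these members in both comparisons.

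Promoter sequence was read for the members because HIF binds a short core, ACGTG or GCGTG, and many targets were high in the same libraries. RefSeq windows of 250 bases upstream of the transcript start (GRCm38.p6) matched 25 of the 32 members, 1 of them, Ero1l, through its newer symbol Ero1a, while Epas1, Bnip3l, Plod2, Lox, Loxl2, Bhlhe40 and Ndrg1 were not matched. On either strand (CACGT and CACGC on the other), 21 of the 25 windows (84.0%) held at least 1 core, beside 38.6% of the 32817 windows of the same length, and 14 held 2 or more, as did 16.7% of all windows. CACGTG holds the core on both strands and was counted as 2. Both cores contain CG, and the member windows had a GC content of 50.0% to 86.0%. All windows were neither matched to them in GC content nor reduced to 1 per gene, so the part of GC in these shares was not tested. Some member windows overlapped annotated exons, over all 250 bases for Higd1a and over 160 for Fam162a. Vegfa, Vhl, Hif1an and Mxi1 had 0 matches in this window, which says only that these letters are absent there. The 4 windows printed are those of the member with the clearest group difference (Egln2), the largest SD (Ankrd37), a target that tracked the libraries (P4ha1) and the subunit that ran opposite (Hif1a), 5′ to 3′ on the gene's strand with the cores of either strand in capitals. They lie at chr7:27166803-27167052 (minus strand), chr8:45999851-46000100 (minus), chr10:59323046-59323295 (plus) and chr12:73907617-73907866 (plus), and for Ankrd37 and Hif1a the RefSeq start lies 5857 and 6492 bases inside the gene's span in the count table.
Egln2: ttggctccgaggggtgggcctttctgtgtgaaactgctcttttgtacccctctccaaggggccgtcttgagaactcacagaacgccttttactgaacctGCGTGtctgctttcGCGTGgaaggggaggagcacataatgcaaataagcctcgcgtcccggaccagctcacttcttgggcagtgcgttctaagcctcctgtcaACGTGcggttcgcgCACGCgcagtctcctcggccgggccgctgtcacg
Ankrd37: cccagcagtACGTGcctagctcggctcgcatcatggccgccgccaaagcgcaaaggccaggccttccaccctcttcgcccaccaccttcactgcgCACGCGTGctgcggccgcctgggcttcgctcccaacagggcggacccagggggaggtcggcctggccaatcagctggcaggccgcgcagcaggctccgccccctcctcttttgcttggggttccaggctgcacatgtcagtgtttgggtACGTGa
P4ha1: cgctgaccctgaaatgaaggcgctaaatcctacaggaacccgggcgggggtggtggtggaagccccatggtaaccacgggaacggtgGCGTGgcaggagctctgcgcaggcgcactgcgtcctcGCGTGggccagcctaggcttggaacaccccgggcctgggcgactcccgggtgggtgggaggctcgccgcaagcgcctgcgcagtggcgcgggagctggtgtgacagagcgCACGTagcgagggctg
Hif1a: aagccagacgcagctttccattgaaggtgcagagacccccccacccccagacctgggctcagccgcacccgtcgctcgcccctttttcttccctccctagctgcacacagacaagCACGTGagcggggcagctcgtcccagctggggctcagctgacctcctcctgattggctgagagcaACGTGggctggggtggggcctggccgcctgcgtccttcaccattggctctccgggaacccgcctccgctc
Egln2 and Ankrd37 had 4 matches each and P4ha1 and Hif1a 3 each, so the number of matches did not separate the member that ran opposite from the others.

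The rest of the pathway was read from 3 further lists, and 0 genes of any of them passed the test in any comparison. Of 20 glycolytic targets, 19 were tested. Slc2a1, the glucose transporter GLUT1, had 137, 513 and 513 CPM in EpPT2, 201, 136 and 525 CPM in EpPT1, and 104, 216 and 411 CPM in Ctrl. The 4 libraries over 5% mitochondrial counts were again its 4 highest, as in 5 of the 19 genes (26.3%, beside 16.5% of all tested genes). In 12 of the 19 (63.2%, beside 8.92% of all tested genes) the 3 libraries of smallest share lay below the other 6. The smallest unadjusted p values of this list were those of Slc16a3, a lactate exporter (log2 fold change 1.58, SE 1.10), and Pdk1, which restrains pyruvate oxidation (-0.39, SE 0.29), in EpPT2 against Ctrl, and Pkm, pyruvate kinase (0.27, SE 0.19), in EpPT1 against Ctrl. Slc16a3 was near the limit of detection, at 0.0577 to 2.61 CPM, with at most 37 counts in any library. Pkm changed sign, to -0.052, with the GC trend removed. The median log2 fold change of the list was -0.02 in EpPT2 and 0.05 in EpPT1 against Ctrl, where the median of all genes was -0.03 and -0.02.

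Of 17 cofactors and turnover genes 15 were tested, and of 25 further targets 20. Os9, a lectin of the endoplasmic reticulum reported to bind HIF-1 alpha, had 107, 212 and 216 CPM in EpPT2, 65.0, 109 and 218 CPM in EpPT1, and 64.4, 75.9 and 110 CPM in Ctrl. The log2 fold change of Os9 was 1.10 (SE 0.44, adjusted p = 0.382, edgeR) in EpPT2 against Ctrl, where the groups overlapped, and 0.65 (SE 0.44) in EpPT1 against Ctrl. Rbx1, a subunit of the VHL ubiquitin ligase, had 93.8, 70.4 and 64.0 CPM in EpPT2, 119, 84.5 and 68.6 CPM in EpPT1, and 125, 101 and 101 CPM in Ctrl, with a log2 fold change of -0.52 (SE 0.26) in EpPT2 against Ctrl. Cul2, the scaffold of that ligase, had a log2 fold change of -0.72 (SE 0.34) in the same comparison.

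Rsbn1 had the smallest unadjusted p of the further targets in both comparisons with Ctrl. Rsbn1 had 12.7, 12.5 and 9.74 CPM in EpPT2, 17.4, 11.5 and 13.6 CPM in EpPT1, and 24.3, 18.3 and 29.0 CPM in Ctrl. All exposed libraries lay below all Ctrl libraries, and the log2 fold change was -1.03 (SE 0.28, adjusted p = 0.376, edgeR) in EpPT2 and -0.75 (SE 0.28, adjusted p = 0.991, edgeR) in EpPT1. Edn1, the vasoconstrictor endothelin 1, had 19.1, 72.2 and 71.1 CPM in EpPT2, 18.6, 22.7 and 54.5 CPM in EpPT1, and 21.2, 7.47 and 27.9 CPM in Ctrl. Its highest libraries were the exposed ones over 5% mitochondrial counts, and the log2 fold change was 1.52 (SE 0.62, adjusted p = 0.386, edgeR) in EpPT2 against Ctrl. Ccng2, a cyclin linked to growth arrest, had a log2 fold change of -1.20 (SE 0.51) in that comparison. With edgeR on all genes with a count, Os9 (adjusted p = 0.0404) and Edn1 (adjusted p = 0.00581) passed there.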

How the data were processed

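RNA was sequenced from 9 HC11 libraries, and the authors deposited 1 table of raw read counts per gene whose column names match the sample labels. Bowtie 0.12.2 and mm8 appear in the submitters' processing notes, but start and end in the table equal GENCODE release 21 (GRCm38) for 53499 of 54409 gene IDs (98.3%), so GRCm38 coordinates are printed. How reads were assigned to genes, with what strand setting and what filters, is not given in the sources used. Gene IDs and organism label are mouse, although the title speaks of human cells.

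The counts were fitted with edgeR 4.0.16 (R 4.3.3), using TMM scaling, filterByExpr (14471 of 28724 genes with a count kept), 1 fit for all 9 libraries with 6 residual degrees of freedom, no block, the two-sided quasi-likelihood test, Benjamini-Hochberg adjustment over all tested genes and a threshold of 0.05. A standard error is the log2 fold change over the root of F. TMM-scaled CPM are printed, and the deposited gene length gave CPM per kb. Log2 CPM used a prior count of 2. No molecular identifiers are recorded, so floors cover counting error only. Replicate pairs differed by more than sampling noise, with the lowest chi-square per gene, 5.13, between EpPT2 2 and EpPT2 3. The other pairs within a group had 55.8 to 173. EpPT2 2 and EpPT2 3 were thus far more alike than any other replicates, and whether they came from separate cultures is not stated. The spread within EpPT2 rests largely on EpPT2 1 against these libraries. The fit was tested on simulated data.

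Members and lists were chosen with earlier results of these data known. Values in every library are given for subunits, oxygen sensing genes, Vegfa, members with the smallest p per comparison (up to 4), the 3 of largest SD and others of interest; from the further lists, genes with the smallest p were named, except 1 gene that is not reported here. Where symbol Aldoa had 2 rows, the row with more counts was used. Alternatives were DESeq2 size factors, no filter, at least 5 CPM in 3 libraries as the filter, the DESeq2 1.42.0 test, limma-voom (limma 3.58.1), the replicate number as a block, the mitochondrial share as a covariate, a spline on GC content (5 degrees of freedom) removed per library, the block with it, only the 6 libraries compared, and each library left out. Fits to the 5 libraries under 5% mitochondrial counts were added after seeing the data. Promoter sequences are RefSeq's.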

Additional observations from a re-analysis of the deposited data

How the results depend on the processing

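Against the alternatives, the count of genes past the test was 268 without the filter on low counts, 62 with DESeq2 and 0 to 2 when 1 library was left out (2 without EpPT1 1) in EpPT2 against Ctrl, 32 without the filter and 1 with DESeq2 in EpPT1 against Ctrl, and 2 without the filter in EpPT2 against EpPT1. Among the members, 1 passed in EpPT2 against Ctrl without the filter and 1 with DESeq2, in both cases Egln2, and without the filter 1 cofactor (Os9) and 1 further target (Edn1) passed; the cause was not tested. With 1 library left out, the median member ran from -0.41 to 0.48 in EpPT2 and from -0.40 to 0.43 in EpPT1 against Ctrl. Of the single-gene values 24 changed sign. Vegfa in EpPT2 against Ctrl was 0.60 with limma-voom and -0.69 to 2.20 with 1 library left out, and Ankrd37 was 0.76 and -1.44 to 3.42. Vegfa in EpPT1 against Ctrl was 0.084 with limma-voom, 0.31 with the mitochondrial covariate, 0.32 in libraries under 5% and -2.04 to 1.96 with 1 library left out, and Ankrd37 was 0.24 with the covariate, 0.76 under 5% and -3.55 to 3.02. With 1 library left out, Hif1a ran from -0.70 to 0.10 in EpPT1 against Ctrl, Epas1 from -0.43 to 0.0015 in EpPT2 against Ctrl and Bnip3l from -0.52 to 0.066 in EpPT2 against EpPT1. Pkm in EpPT1 against Ctrl was -0.052 with the GC trend removed. A further 9 member medians moved by less than the SD between replicates but changed sign, among them EpPT2 against Ctrl with the block and the GC trend removed (0.12), EpPT1 against Ctrl under 5% (0.0036), and EpPT2 against EpPT1 with the mitochondrial covariate (-0.20) and under 5% (-0.29). The other 339 summary values stayed within their limits, and 632 single-gene values kept their direction and side of the threshold. A group of 3 libraries and a coefficient of variation of 39.3% between libraries limit what these counts can resolve.

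With the replicate number as a block, 0 genes and 0 members passed in each comparison, and 3056, 947 and 173 genes had an unadjusted p under 0.05 in EpPT2 against Ctrl, EpPT1 against Ctrl and EpPT2 against EpPT1. The lowest adjusted p was then 0.0679, that of Egln2. Under the block Vegfa was 0.76 in EpPT2 and 0.22 in EpPT1 against Ctrl and Ankrd37 was 0.92 in EpPT2, and with the block and the GC trend removed Vegfa was 0.76 and 0.19, Ankrd37 0.89 and Pkm in EpPT1 -0.071. The numbers did not pair the libraries throughout, since deviations of same-numbered libraries correlated from -0.636 to 0.732 across genes. Those numbered 3 correlated at 0.627 to 0.729, and the differently numbered EpPT1 2 and EpPT2 1 at 0.746.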

Other observations

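Genes beyond the members also split the libraries by their mitochondrial share, and the following were chosen after their values were seen. Arnt2, a second partner of the HIF alpha subunits known best from neurons, had 39.1, 6.66 and 4.73 CPM in EpPT2, 9.35, 47.7 and 6.38 CPM in EpPT1, and 45.6, 10.6 and 5.26 CPM in Ctrl, so that EpPT2 1, EpPT1 2 and Ctrl 1 were high, as for Hif1a. Tfrc, the transferrin receptor, had the same 3 libraries highest, with 460, 248 and 267 CPM in EpPT2, 339, 510 and 236 CPM in EpPT1, and 663, 301 and 173 CPM in Ctrl. Igfbp3, a secreted binder of insulin-like growth factors, ran the other way, with 67.2, 615 and 578 CPM in EpPT2, 326, 57.7 and 614 CPM in EpPT1, and 60.3, 346 and 578 CPM in Ctrl. Cited2, which competes with HIF-1 alpha for its coactivators, had 140, 310 and 292 CPM in EpPT2, 152, 155 and 349 CPM in EpPT1, and 89.7, 73.4 and 365 CPM in Ctrl. For all 4 genes the 3 groups overlapped.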
